A study of Bos taurus with 90 samples.

Results

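The transcripts described here are 200 bovine genes that were abundant in the oocyte and close to undetected in the mural granulosa cells (MGCs) of the same follicles. Levels are given as CPM, a gene's count divided by the library total and multiplied by 1000000. Of 27270 genes in the count table, 10695 had a mean below 0.1 CPM over the retained MGC libraries, and the 200 of these with the highest mean CPM over the retained oocytes were taken as members. They are numbered here by rank from 1, the highest oocyte mean. The members were thus chosen by their measured mean CPM in MGCs and oocytes, so high levels in oocytes and low levels in MGCs follow from the choice and are given below as a description. The stage of the follicle, the spread between oocytes and the cumulus cell (CC) libraries were not used in the choice.

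The libraries came from 30 antral follicles dissected from cattle ovaries collected at a slaughterhouse, 10 each of the small, medium and large stage, with 1 MGC library, 1 library of a pool of CCs and 1 library of a single oocyte from each follicle. Nothing was given to the animals or cells, and the breed, the age and the animal behind each follicle were not stated. The methods state that each size class came from several animals, collected in batches of few ovaries. Follicles of one animal may thus be counted as separate samples, and p-values then measure the spread between follicles. After removal of 3 follicles that the study excluded, 9 small follicles of 3.1 to 3.8 mm (S1 to S9), 8 medium follicles of 6.2 to 7.0 mm (M1 to M8) and 10 large follicles of 9.6 to 11.6 mm (L1 to L10) remained. The CC column of S7 holds counts for 1066 genes only and was left out, which left 26 CC pools. Library totals were 26739954 to 39266980 counts in MGCs, 8760201 to 40180192 in CC pools and 8442938 to 53173320 in oocytes. The MGC limit of 0.1 CPM stands for 2.67 counts in the smallest and 3.93 counts in the largest MGC library. According to the methods, the MGC libraries were standard bulk libraries, whereas those of CCs and oocytes were amplified from low input. Cell type and preparation thus cannot be told apart wherever MGCs are compared, the choice of members included. No molecular identifiers were used in amplifying CC and oocyte libraries, so the counting intervals given below cover counting error only. The oocytes S2, S8, S9 and L9 had the fewest genes detected, from 10588 to 13037 against 14427 or more in the other oocytes. Correlations between oocytes and counts of calls in oocytes are also given without them, and the fitted changes of single members are not.

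The growing oocyte is known to transcribe and store a large set of messenger RNAs that it later uses during meiotic maturation and in the early embryo, when transcription is silent. Many of these messages are made in no other cell of the follicle. The CCs surround the oocyte and contact it by fine extensions through the zona pellucida that end at gap junctions, whereas MGCs line the follicle wall and have no contact with it. A CC pool is therefore a somatic sample taken from the surface of the oocyte, and the MGC sample is one taken at a distance. The count table lists genes by Ensembl identifier, and none of the identifiers could be paired with a symbol here. The members' functions are therefore not given, and the oocyte, CC and MGC labels could not be checked against marker genes.

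In oocytes the members formed a steep series. The mean over 27 oocytes was 8018 CPM for rank 1 and 7594 CPM for rank 2, fell to 1539 CPM at rank 10, and was 31.2 CPM at rank 200. The 10 highest members held 50.9% of the members' summed CPM, ranks 11 to 50 held 32.7%, and ranks 151 to 200 held 2.55%. Rank 1 was the highest member in 18 oocytes and rank 2 in the other 9. Rank 1 led in 8 of 9 small, 3 of 8 medium and 7 of 10 large oocytes. The 200 members were 3.68% of the 5441 genes with an oocyte mean at least as high as that of rank 200, since the other 5241 lay at or above the MGC limit.

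**Figure D1:**
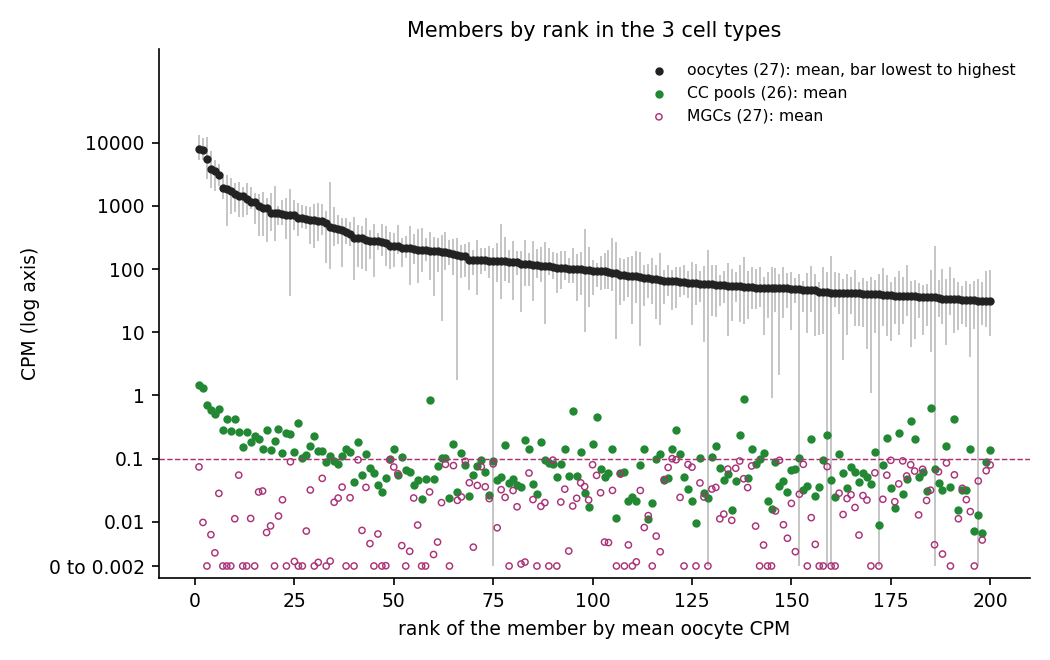
Mean CPM of each member (log axis) against its rank, in 27 oocytes (black, with a bar from the lowest to the highest oocyte), 26 CC pools (green) and 27 MGC libraries (open circles), where the dashed line is the MGC limit of 0.1 CPM and values under 0.002 are drawn at the bottom. Oocyte means run from 8018 to 31.2 CPM, and CC means follow the oocyte order down to about rank 50 and then scatter around the limit.

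At the edge of the ranking, ranks 199 and 200 had oocyte means of 31.4 and 31.2 CPM, and the next genes, 201 and 202, had 31.2 and 30.3 CPM. At the edge of the MGC limit, the members of ranks 121 and 120 had MGC means of 0.0959 and 0.0999 CPM. The closest genes outside that limit, with oocyte means of 39.6 and 71.1 CPM, had MGC means at the limit itself and at 0.102 CPM. Membership is thus continuous with the genes around it on both limits.

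The members were low rather than missing in MGCs. No count in any of the 27 MGC libraries was found for 38 members, where 3 counts over all of these libraries stand for 0.00326 CPM. The median member had a count in 5 MGC libraries, and the most widely counted one in 20. The highest single value was 1.17 CPM, for rank 147. Each MGC library held 86 to 305 counts on the members, from 2.59e-04% to 9.73e-04% of its total.

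Nearly every member was present in every oocyte. Of the 200, 192 had a count in all 27 oocytes, 191 were at 1 CPM or more in all and 164 at 10 CPM or more in all. Of the 8 members with an oocyte at 0, 6 were missing from 1 oocyte, 1 from 2 and 1 from 9. The member missing from 9 oocytes was rank 160. All 8 had a value of 0 in at least 1 of S2, S8, S9 and L9, and S8 alone lacked 5 members. Rank 160 was the only member with a value of 0 in any other oocyte.

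The member profile was similar from oocyte to oocyte. Pearson's r of log2(CPM + 1) over the 200 members, across genes, had a median of 0.893 over all pairs of oocytes, with a range of 0.737 to 0.952. Genes are not independent replicates, and these values are a description. The median within a stage was 0.865 for small, 0.918 for medium and 0.913 for large oocytes. Without S2, S8, S9 and L9 the median over all pairs was 0.906 and the lowest value was 0.795. The median r of single oocytes with the other oocytes lay between 0.788 (S8) and 0.920 (L3) over the members. Over 9882 other genes found in oocytes it lay between 0.758 (S8) and 0.927 (M8), so the similarity was not particular to the members.

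The members took a larger share of the counts in small than in large oocytes. Their summed share in small oocytes was lowest at 7.37% in S8, had a median of 8.19% and was highest at 9.22% in S9. In medium oocytes the lowest, median and highest shares were 6.63%, 7.39% and 8.04%. In large oocytes they were 6.40%, 7.27% and 8.07%. The groups overlapped, with the upper small oocytes, S1 at 9.15%, S3 at 8.63% and S9, above every medium and large oocyte. Counting error was small beside this spread, since the widest 95% exact binomial interval of an oocyte share was ± 0.0168 percentage points.

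The mean share was 8.18% ± 0.705 (SD, n = 9) in small, 7.33% ± 0.495 (n = 8) in medium and 7.19% ± 0.519 (n = 10) in large oocytes. From small to large the difference was -0.984 percentage points (exact two-sided permutation test, p = 0.00257, adjusted over the 6 stage pairs of oocytes and CCs to 0.0154). From small to medium it was -0.843 points (exact permutation p = 0.0133, adjusted p = 0.0400). From medium to large it was -0.142 points, which was within the spread (exact permutation p = 0.561, adjusted p = 0.674). The share therefore differed between small oocytes and each later stage, and no difference was detectable between medium and large ones.

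The difference from small to large lay in the 10 highest members. They summed to 4.48% ± 0.650 of counts in small, 3.61% ± 0.347 in medium and 3.47% ± 0.368 in large oocytes (SD). Ranks 11 to 200 summed to 3.70% ± 0.244, 3.72% ± 0.186 and 3.72% ± 0.184 in the same order. With the median over members of log2(CPM + 1) in place of the summed share, which gives each member the same weight, the small to large difference was -0.0592 and did not pass the test (exact permutation, adjusted p = 0.472).

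The identifiers of the follicles begin with 3 digits that several follicles share, and their meaning was not stated. Small and large oocytes occur together under 3 such prefixes, too few for a test within each. The mean shares were 8.38% for S1, S3 and S8 against 7.65% for L6 under one prefix, 7.41% for S2 against 7.11% for L2 and L10 under the next, and 7.90% for S7 against 7.40% for L5 under the last. The large oocytes were lower in each. Among the 10 follicles that the study took as healthy the difference was -0.493 points (exact permutation p = 0.143, adjusted p = 0.286), and with the 3 removed follicles included it was -0.767 points (exact permutation p = 0.0392, adjusted p = 0.130). The healthy groups were so small that their adjusted test could pass only if other stage pairs also gave their lowest possible p. The small to medium difference lost its call when any one of S1, S3, S5, S6, S9, M1, M3, M4, M5, M7 or M8 was left out, with differences of -0.871 to -0.713 points and adjusted p of 0.0514 to 0.0876 from the exact permutation test.

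**Figure D2:**
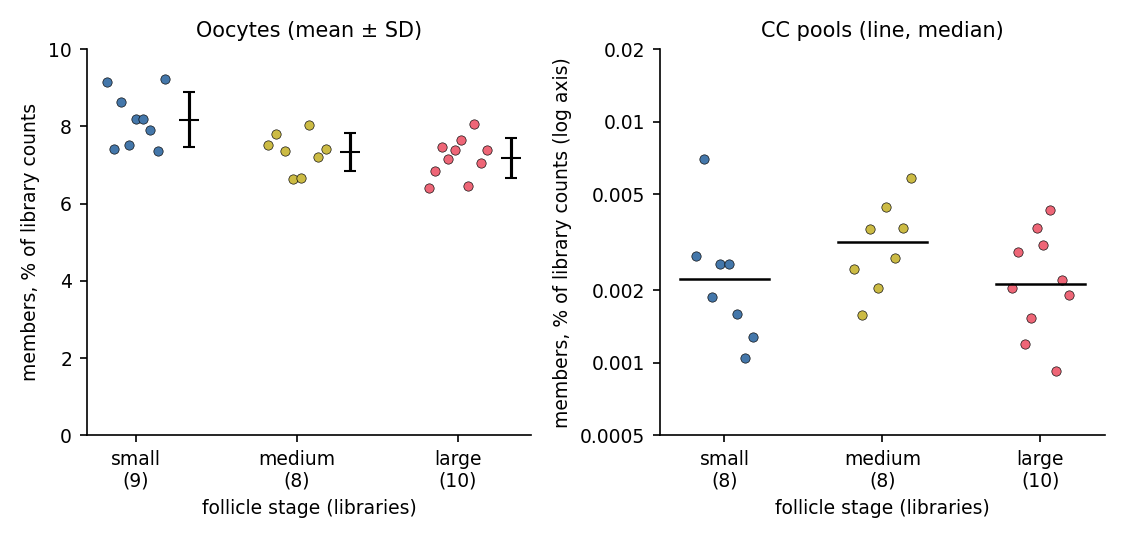
Percent of library counts on the 200 members by follicle stage, 1 point per library, in oocytes (left, with the mean ± SD) and in CC pools (right, log axis, with the median as a line). Small oocytes average 8.18% against 7.19% in large ones, and the CC pools of all stages overlap between 9.26e-04% and 0.00704%.

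Few members changed by more than 2-fold between stages in oocytes. The stages were compared by edgeR's quasi-likelihood test over 14936 genes, all 200 members included, and a gene was called at an adjusted p below 0.05 with a fold change above 2. From small to large oocytes 4 members fell, against 0.582% of all genes tested, and 1 member rose, against 0.924%. At an adjusted p below 0.05 with no limit on fold, 22 members fell (3.13% of all genes) and 5 rose (2.52%). At an unadjusted p below 0.05 there were 71 members (20.4% of all genes), and DESeq2 called 4 members as falling (0.844% of all genes) and 0 as rising (1.12%). The median log2 fold change of the members was -0.108 beside 0.037 over all genes tested, and 124 of 200 members were lower in large oocytes beside 47.0% of all genes. In the 10 healthy follicles the median of the members was 0.042, so its sign turned, and 95 members were lower. The count of 5 calls moved to 2 without S1, L2 or L4 and to 8 without S7 or L6. It was 2 without S2, S8, S9 and L9, 1 (rank 34) in the healthy follicles, and 0 with the identifier prefix in the fit or with the removed follicles included. Over all genes tested, 74 of 14931 were called without those 4 oocytes, 1 of 14760 in the healthy follicles, and 0 in the last settings. The loss of calls there was thus not particular to the members. Both calls without those 4 oocytes were falls, and at any fold 5 members fell and 1 rose (111 and 87 of all genes). The healthy small oocytes were S4, S5 and S6, all of 1 prefix, so stage and prefix cannot be told apart in the healthy set.

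**Figure D3:**
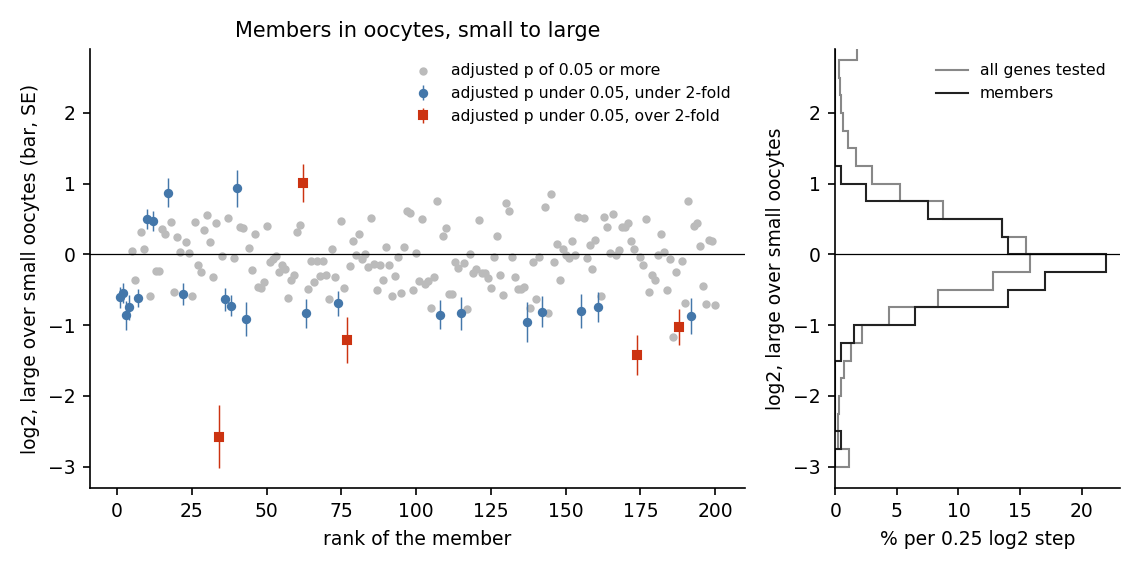
Left, log2 of large over small oocytes for each member against its rank, with an approximate standard error for those with an adjusted p below 0.05 (blue under 2-fold, red squares over 2-fold). Right, the percent of members (black) and of all genes tested (grey) per step of 0.25 on the same scale, with values beyond 3 placed in the end steps, where 4 members fell and 1 rose by more than 2-fold and the members' median is -0.108 beside 0.037.

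Among the 10 highest members, 5 fell and 1 rose from small to large oocytes. Rank 1 ranged from 6223 through a median of 10319 to 13188 CPM in small oocytes and from 5451 through 7078 to 9128 CPM in large ones. Rank 3 ranged from 3523 through 7299 to 12105 CPM in small and from 2946 through 4638 to 5899 CPM in large oocytes. The stages overlapped for both. Ranks 1, 2, 3, 4 and 7 fell from small to large by 0.61, 0.55, 0.86, 0.75 and 0.62 on the log2 scale (edgeR, adjusted p = 0.0186, 0.0191, 0.0158, 0.0140 and 0.00761), all by less than 2-fold. Rank 10 moved the other way, with a log2 change of 0.50 ± 0.141 (SE, adjusted p = 0.0313), from a median of 1165 CPM in small to 1661 CPM in large oocytes. Ranks 5, 6, 8 and 9 did not pass the test, with log2 changes of 0.05, -0.37, 0.31 and 0.08. Without S1, ranks 1 and 2 did not pass, and rank 10 lost its call without any one of S1, S2, S3, S4, L2, L3, L4 or L5. None of these 6 changes passed in the healthy follicles, with the identifier prefix in the fit or with the removed follicles included, where the edgeR adjusted p lay between 0.153 and 0.742 with each direction kept. Of all genes tested, 1 passed in the healthy follicles and 0 in each of the other settings. These fits therefore cannot tell the members from other genes.

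The largest fall was that of rank 34 (ENSBTAG00000040202). It ranged from 159.5 CPM through a median of 436 CPM to 2418 CPM in small oocytes. In medium oocytes the lowest, median and highest values were 158.9, 183.8 and 911 CPM, and in large oocytes 98.4, 141.2 and 352 CPM. The small and large groups overlapped. The 3 highest values were those of S4, S5 and S6, which share an identifier prefix and lay at 1640 to 2420 CPM, while the other 6 small oocytes lay at 160 to 727 CPM. S4, S5 and S6 are also all of the small oocytes in the healthy set. The log2 change from small to large was -2.57 ± 0.442 (SE, edgeR, adjusted p = 0.00387). The small mean was 5.80 times the large mean, and 2.41 times without S4, S5 and S6. Within each of the 3 prefixes that hold both stages it was lower in large oocytes, with means of 457 against 135 CPM, 436 against 161 CPM and 160 against 102 CPM. With the prefix in the fit the adjusted p was 0.268.

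Rank 174 (ENSBTAG00000054748) fell with less overlap. Its lowest, median and highest values were 25.2, 62.5 and 79.4 CPM in small oocytes and 8.81, 21.9 and 39.8 CPM in large ones, with medium oocytes between them at a median of 39.7 CPM. The log2 change was -1.42 ± 0.281 (SE, edgeR, adjusted p = 0.00553), and no single follicle left out ended the call. In the healthy follicles the adjusted p was 0.436. Within 2 of the 3 shared prefixes it was lower in the large oocytes, and in the third it was 35.3 CPM in small and 35.5 CPM in large ones.

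The other called falls were those of ranks 77 and 188. Rank 77 had a median of 172.6 CPM in small and 83.2 CPM in large oocytes, with a single high oocyte, S1, at 521 CPM. Its log2 change was -1.21 ± 0.328 (SE, edgeR, adjusted p = 0.0264), and the call was lost without S1, L2 or L4. In the healthy follicles its log2 change was -0.16 (edgeR, adjusted p = 0.964), and with the prefix in the fit the adjusted p was 0.399. It was lower in large oocytes within 2 of the 3 shared prefixes, and in the third it was 80.5 CPM in small and 88.5 CPM in large ones. Rank 188 had medians of 54.7, 26.1 and 27.8 CPM in small, medium and large oocytes. It fell by 1.03 on the log2 scale from small to large (edgeR, adjusted p = 0.0168), with an adjusted p of 0.373 in the healthy follicles and 0.367 with the prefix in the fit. Under the third prefix it was 26.7 CPM in small and 29.7 CPM in large oocytes. Without S2, S8, S9 and L9 only 2 falls were called, so the 4 called falls did not all keep their calls.

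The 1 member that rose by more than 2-fold was rank 62 (ENSBTAG00000003101). Its lowest, median and highest values were 14.95, 126 and 197 CPM in small oocytes and 110, 275 and 343 CPM in large ones. The log2 change was 1.01 ± 0.265 (SE, edgeR, adjusted p = 0.0229), just past the 2-fold limit, and with DESeq2's size factors or in DESeq2 no rising member was past it. It did not pass without S1 (range of adjusted p over all alternatives, 0.00460 to 0.500). Without S2, S8, S9 and L9 no rising member was called. The next largest rise was that of rank 40 (ENSBTAG00000003103), with medians of 202, 346 and 396 CPM in small, medium and large oocytes and a log2 change of 0.93 ± 0.260 (SE, edgeR, adjusted p = 0.0308). Rank 40 did not pass in 13 of 36 alternatives, among them leaving out any one of S1, S2, S5, L1, L3, L4, L7 or L10 (range of adjusted p over all alternatives, 0.00828 to 0.742, the highest with the prefix in the fit). Within 2 of the 3 shared prefixes it was higher in large oocytes, and in the third it was 295 CPM in small and 293 CPM in large ones. Ranks 62 and 40 were both lowest in oocytes of small follicles, in S9 and S1, and the stages overlapped for both. Over the 27 oocytes their log2(CPM + 1) values had an r of 0.49.

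From small to medium oocytes 1 member was called, rank 188, with a log2 change of -1.16 ± 0.274 (SE, edgeR, adjusted p = 0.0492). That compares with 0.0268% of genes called as falling and 0.0469% called as rising. With no limit on fold, 2 members fell (0.348% of all genes) and 0 rose (0.214%), the second being rank 95, with a log2 change of -0.97 (edgeR, adjusted p = 0.0453). At an unadjusted p below 0.05 there were 49 members (15.6% of all genes), and DESeq2 called 3 (0.248% of all genes). The call of rank 188 was lost when any follicle other than S4, S6, S7, L4, L6 and L8 was left out. From medium to large oocytes edgeR and DESeq2 called 0 members (0% of all genes by either), and 14 members had an unadjusted p below 0.05 in edgeR (5.25% of all genes).

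The members differed in how much they varied between oocytes of one stage. The SD of log2(CPM + 1) within stages had a median of 0.514 over the members, with quartiles of 0.393 and 0.637. Over the 5241 other genes at least as abundant in oocytes the median was 0.451, with quartiles of 0.354 and 0.582. In ranks 1 to 50 the median was 0.423 beside 0.333 for 807 other genes in the same CPM range, and in ranks 51 to 200 it was 0.548 beside 0.474 for 4429. The members thus varied somewhat more at both levels of abundance, as a description with no test. The steadiest were ranks 6, 46 and 7, with SDs of 0.218, 0.220 and 0.243. Rank 6, for example, stayed between 2086 and 4566 CPM in all 27 oocytes.

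The 3 most variable members were ranks 160, 66 and 186, with SDs of 3.17, 1.65 and 1.64. Rank 66 lay between 72.7 and 305 CPM in 25 oocytes and was nearly missing from the other 2, S6 at 2.93 CPM and L5 at 1.76 CPM. Rank 186 was spread over the whole range, from 0 in S2 to 231 CPM in S9, with medians of 10.8, 44.4 and 25.5 CPM in small, medium and large oocytes.

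Rank 160 was either present or nearly missing. In 15 of 27 oocytes it lay between 26.7 and 163 CPM, with a median of 66.7 CPM. In the other 12 it was at or below 1.06 CPM, and 9 of these had no count at all. It was present in 5 of 9 small, 4 of 8 medium and 6 of 10 large oocytes, so it was split within every stage. Among the 5441 genes at least as abundant in oocytes it was the only one without a count in 4 or more oocytes, the next highest number being 3. No count was found in the MGC libraries, and 4 CC pools had a count, at most 12. The oocytes with a level below 10 CPM included all 4 of one identifier prefix (S1, S3, S8 and L6), and all 3 oocytes of another prefix (S4, S5 and S6) had it. Under 5 further prefixes oocytes of both kinds occurred together. The animal behind each oocyte was not stated, so whether this split follows the animal was not tested.

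Over 13247 other genes with an oocyte mean of 1 CPM or more, the pattern of rank 160 was closest to that of a pair of less abundant genes. Over the 27 oocytes their r of log2(CPM + 1) with rank 160 was 0.995 and 0.937, and the next highest was 0.634. Their oocyte means were 12.8 and 11.4 CPM and their MGC means were 0. The first was at 8.12 CPM or more wherever rank 160 was present and at most 0.118 CPM elsewhere. The second was at 5.80 CPM or more where rank 160 was present, and otherwise low except in S8 at 6.49 CPM and S3 at 3.89 CPM. In the deposited table these genes stand 7 and 3 rows from rank 160, within a stretch that holds 5 other rows, and the meaning of the row order was not settled.

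**Figure D4:**
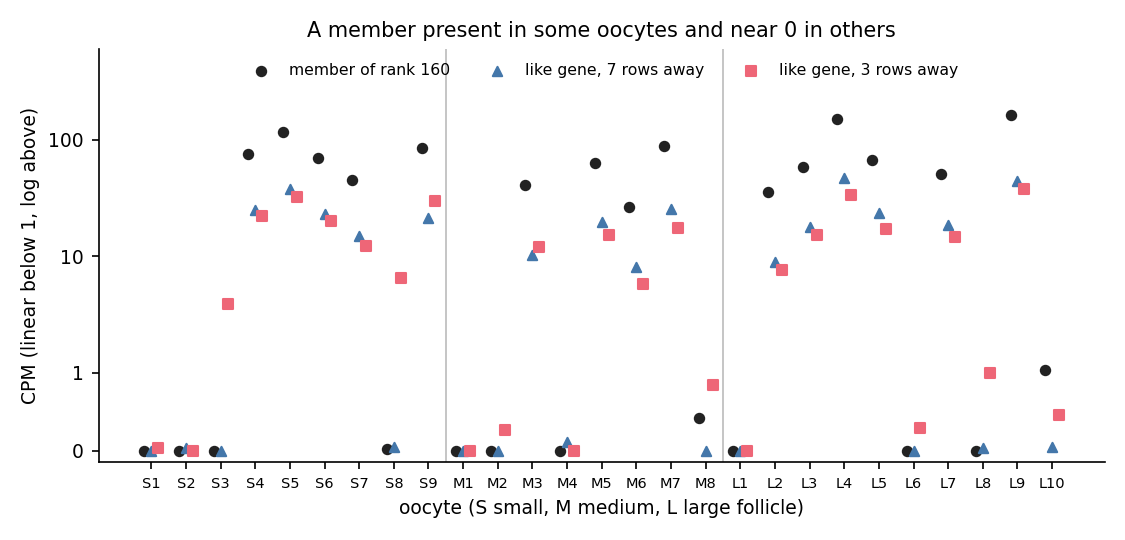
CPM (linear below 1, log above) of the member of rank 160 (circles) and of the pair of genes with the most similar pattern (triangles and squares) in each of the 27 oocytes, ordered by stage. The member lies between 26.7 and 163 CPM in 15 oocytes and at or below 1.06 CPM in 12, and the first of the pair (triangles) follows it in every oocyte while the second (squares) departs from it in S3 and S8.

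In the CC pools the members were present at traces. Their summed share was lowest at 9.26e-04% of counts in L8 (267 counts, 95% exact binomial interval 8.18e-04% to 0.00104%), had a median of 0.00250% and was highest at 0.00704% in S2 (2437 counts, 0.00676% to 0.00732%). The ratio of the summed means was 2780 between oocytes and CC pools and 5.12 between CC pools and MGCs, whose libraries were prepared in another way. The mean was higher in CC pools than in MGCs for 177 of 200 members, where the MGC mean is held below 0.1 CPM by the choice of members. The median member had a count in 11 of 26 pools, 122 members had a median of 0, and 2 members, ranks 1 and 2, had a count in every pool. A median of 4 members per pool reached 1 CPM, with a range of 1 to 18. In a pool of cells, a trace in each cell and a higher level in a few cells cannot be told apart.

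The levels in CC pools followed the levels in oocytes for the abundant members. The 5 highest CC medians were those of ranks 1, 2, 3, 6 and 4, at 1.21, 0.939, 0.592, 0.451 and 0.412 CPM. Across ranks 1 to 50, Spearman's rho between the mean CC and the mean oocyte level was 0.85, and between the mean MGC and the mean oocyte level it was -0.14. Across ranks 51 to 200 the values were 0.08 and -0.09. These are correlations across genes, which share their libraries, and are descriptions. Nothing is read from the MGC correlations, since both of their levels were used to choose the members. For ranks 1 to 10 the mean in CC pools was 126 to 280 ppm of the mean in oocytes, in parts of 1000000, with a median of 167. The median was 211 in ranks 11 to 50, 467 in ranks 51 to 100, 835 in ranks 101 to 150 and 1320 in ranks 151 to 200. Relative to the oocyte, the CC mean was thus higher toward the lower ranks, which are ordered by the same oocyte mean. In MGCs the values were 3.44 ppm for the sum of ranks 1 to 10 and 813 for ranks 151 to 200, and nothing is read from these, since a fixed MGC limit and a falling oocyte mean belong to the choice of members. Of the members' CC counts above 0, 41.3% were a count of 1 or 2. Even counts made up 76.4% of them, beside 50.3% of the members' oocyte counts above 0. The cause was not tested. Binomial intervals take counts as independent, so those of the CC pools may be too narrow.

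**Figure D5:**
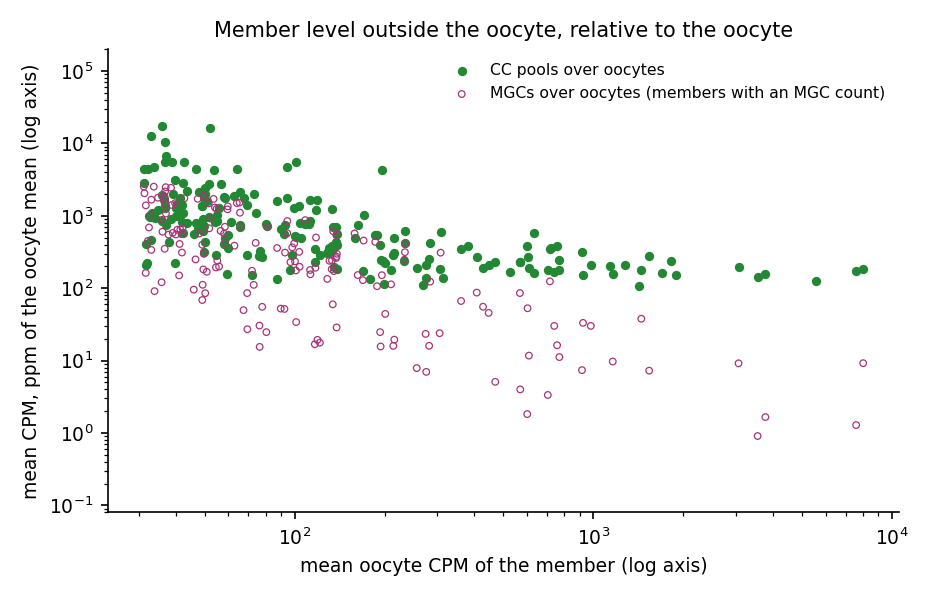
Mean CPM of each member in CC pools (green) and in MGCs (open circles, members with an MGC count) in ppm of its oocyte mean, against the oocyte mean (both axes log). Among ranks 1 to 10 the CC values lie between 126 and 280 ppm, and at low oocyte means they spread up to 17300 ppm.

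Some lower members stood above that relation. The 5 with the highest CC median relative to the oocyte mean were ranks 191, 138, 185, 195 and 180. Rank 138 had an oocyte mean of 52.2 CPM and a count in 23 of 26 pools, and it was the highest member of 4 pools. Rank 191 had an oocyte mean of 33.1 CPM and a count in 21 pools, with a CC mean of 0.416 CPM and a highest value of 1.88 CPM in M1. Rank 185 had the highest ratio of means, 17300 ppm, of which L6 at 5.31 CPM was the highest pool. These levels were still far below those in oocytes.

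The member share of CC pools did not differ detectably between stages. Its lowest, median and highest values were 0.00105%, 0.00223% and 0.00704% in small, 0.00158%, 0.00316% and 0.00583% in medium, and 9.26e-04%, 0.00213% and 0.00432% in large follicles. The differences in mean log2 share were 0.48 from small to medium, -0.50 from medium to large and -0.03 from small to large (exact two-sided permutation tests, p = 0.218, 0.133 and 0.943, adjusted p = 0.328, 0.265 and 0.943). The stages overlapped throughout.

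Single members in CC pools were called once. Members could enter these tests through their oocyte levels alone, since the filter accepts a gene that passes in any cell type. Most had few counts in CC pools, and edgeR's own filter on these pools kept 20 of the 200 members. Few calls beside the rate of all genes therefore cannot tell steady members from members with too few counts. Over 15109 genes tested by edgeR from small to large CC pools, 1 member fell (2.09% of all genes) and 0 rose (1.25%). Of the members, 32 had an unadjusted p below 0.05 (22.8% of all genes), and DESeq2 called 7, of which 4 rose (4.62% of all genes) and 3 fell (4.32%). Neither step between neighbouring stages had a call, with 0 members in each (0% of all genes). At an unadjusted p below 0.05 there were 38 members in the earlier step (12.0% of all genes) and 20 in the later one (7.70%), and DESeq2 called 0 in both (0.252% and 0.119% of all genes). The member that fell was rank 138, from a lowest, median and highest value of 0.116, 0.909 and 8.97 CPM in small to 0, 0.124 and 0.444 CPM in large pools. The groups overlapped, and S1 at 8.97 CPM was the highest pool. The fitted log2 change was -4.73 ± 0.947 (SE, edgeR, adjusted p = 0.0309), and the call was lost without any one of S1, S9, L4, L7 or L9, while 2 members were called without S3, S4 or L3. Several large pools had no count of it, so the fitted change is no measured fold. In oocytes, rank 138 had no call between stages.

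The share of members in a CC pool was set against 3 other measures of the same follicle over the 26 follicles, with 100000 permutations and adjustment over the 3. With the log2 total count of the pool, Pearson's r was -0.21 (permutation p = 0.299, adjusted p = 0.299) and Spearman's rho -0.15 (permutation p = 0.467, adjusted p = 0.467). With the number of genes detected in the pool, r was 0.42 (permutation p = 0.0317, adjusted p = 0.0952) and rho 0.48 (permutation p = 0.0149, adjusted p = 0.0447). Without L7 and S1, which lay farthest from the median number of genes, r was 0.54 (permutation p = 0.00670). Within stages it was 0.21 for small, 0.43 for medium and 0.67 for large follicles. Pools with more genes detected thus tended to hold more of the members, by the rank measure and not by the adjusted Pearson test. With the member share of the oocyte from the same follicle, r was -0.31 (permutation p = 0.121, adjusted p = 0.182) and rho -0.29 (permutation p = 0.146, adjusted p = 0.219). Left without the pairs farthest from the median, the first and last relations gave r of -0.13 (permutation p = 0.548, without S5 and M5) and -0.30 (permutation p = 0.159, without S1 and S9).

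In most pools the traces were not closest to the oocyte of the same follicle. Over the 200 members, r of log2(CPM + 1) between a pool and its own oocyte had a median of 0.320, from -0.0057 in L8 to 0.676 in M7. The own oocyte was the most similar of 27 in 3 of 26 pools, S3, S5 and M7, where 0.963 pools would be so if every oocyte were as likely. With Spearman's rho it was the most similar in 1 pool, and with deviations from the stage mean in 0. The r of those deviations with the own oocyte lay between -0.095 and 0.14, with a median of 0.027, and was above 0 in 18 of 26 pools. These values are a description with no test.

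The 3 follicles that the study removed differed from the others in the members in some of their libraries and not in others. The oocyte of the removed small follicle had a member share of 6.01% and a count for all 200 members. The oocyte of the removed medium follicle of 7.0 mm had a share of 7.22%, within the retained range, but lacked 46 members, with 6770 genes detected in all. The oocyte of the removed medium follicle of 7.1 mm had a share of 3.37% and lacked 31 members, and rank 1 was at 136 CPM there beside 5372 CPM or more in every retained oocyte, while rank 2 was at 4630 CPM. The r of these oocytes with the retained mean over the members was 0.916, 0.690 and 0.539 in the order given. The CC pools of the removed medium follicles had shares of 0.00387% and 0.00201%, within the range of the retained pools.

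The CC pool of the removed small follicle held more of the members than any other pool. Its share was 0.0302% (4089 counts, 95% exact binomial interval 0.0292% to 0.0311%), above the highest retained pool at 0.00704%. It had a count for 194 of the 200 members, and 118 were at 1 CPM or more. Its highest member was rank 78 at 12.8 CPM, while rank 1 was at 3.76 CPM and rank 2 at 1.33 CPM, and r with the mean oocyte levels was 0.0682. This pool also had the most genes detected of all CC pools, 23838. In retained pools, r with the oocyte of the same follicle had a median of 0.320 but was as low as 0.00345 in L3 and -0.0057 in L8. A low r was thus not particular to this pool, and what raised its share was not tested.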

How the data were processed

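RNA-seq counts of MGCs, CC pools and single oocytes of 30 follicles were used as deposited. According to the methods, the authors prepared CCs and oocytes by SMART-seq2 with an oligo(dT) primer. A service provider extracted total RNA from MGCs and made their libraries. The authors used STAR with the ARS-UCD1.2 genome, and counted reads that mapped to 1 place over exons by featureCounts. The labels name HISAT2 2.2.1 instead, and which aligner made the deposited counts was not settled here. The deposited values are whole counts per gene without normalization. CPM ranks levels in counts, not per length, since no exon lengths were used here.

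The members and lists were chosen with earlier results of these data known. Planned marker and gene lists were not run, since the identifiers could not be paired with symbols. Members were named by fixed rules: the 10 highest, those called between stages, the highest in CC pools, the most and least variable, and those at the limits, by rank and with at most 4 identifiers.

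Genes above 1 CPM in at least 15 retained libraries of any cell type, 15134 in all, were tested with edgeR 4.0.16 (TMM, glmQLFTest, R 4.3.3) in 1 fit per cell type, with Benjamini-Hochberg adjustment over all genes tested. The SE given with an edgeR change is the absolute log2 change divided by the square root of its F statistic. It is an approximation that edgeR itself does not report. DESeq2 1.42.0 was an alternative, and both were tested on simulated data. Shares were compared by exact permutation over samples.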

Additional observations from a re-analysis of the deposited data

Results flagged for a closer look

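Of 57 groups of 8 to 10 libraries tested for a library far from the others, 4 had one, where chance gives about 1 group in 20. In large oocytes, L6 was apart in both rank 2, at 9700 CPM, and rank 8, at 475.1 CPM. In medium oocytes, M6 was apart in rank 5, at 2172 CPM. In small oocytes, S9 was apart in rank 62, at 14.95 CPM. Outside the comparisons, the CC pool of the removed small follicle had a member share of 0.0302%, above every retained pool. The causes were not tested.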

How the results depend on the processing

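No paired analysis was possible because the stages hold different follicles. The small to large share of members in oocytes differed by -0.493 points in the healthy follicles, by -0.767 points with all follicles and by -0.0592 as a median of log2(CPM + 1), none past the test, and by -1.09 to -0.854 points, all past it, with 1 follicle left out. From small to medium these values were -0.600, -1.03 and -0.0892, none past it, and -0.944 to -0.713 points. The healthy groups were too small for that test to pass from small to medium. From small to large it could pass only if other stage pairs also gave their lowest possible p. Calls in oocytes from small to large were 1 in the healthy follicles, 0 with all follicles, 3 with the libraries of both stages alone, 0 with the identifier prefix as covariate, 2 without S2, S8, S9 and L9 (chosen after seeing the data), and 2 to 8 with 1 follicle left out. Over all genes tested, the first 5 of these settings called 1, 0, 106, 0 and 74 genes. From small to medium the calls of members were 3 in DESeq2, 2 with its size factors, 0 to 4 with 1 follicle left out, and 0 with no filter, with all follicles, with both stages alone, with the prefix or without those 4 oocytes. Over all genes these were 37 in DESeq2, 16 with its size factors, 1 without those 4 oocytes and 0 in the other settings with 0 members. At any fold, a count also chosen after seeing the data, members from small to large were 1, 0, 14, 0 and 6 in the order given and 10 to 39 with 1 follicle left out, and from small to medium 21 in DESeq2, 1 in the healthy follicles, 0 in the 5 settings that gave 0 calls, and 0 to 15. Over all genes, those from small to large were 1, 0, 415, 0 and 198 in the same order. From small to medium they were 736 in DESeq2 and 1 in the healthy follicles. In CC pools from small to large the calls of members were 7 in DESeq2, 0 in the healthy follicles or with the prefix, and 0 to 2 with 1 follicle left out. Over all genes these were 1350 in DESeq2, 12 in the healthy follicles and 6 with the prefix. The correlation of the CC share with genes detected was 0.71 with all follicles. The own oocyte was the most similar for 1 pool by Spearman's rho and 0 by deviations. The causes of these changes were not tested. Over all comparisons, those listed included, 374 of 479 alternatives kept the direction, the side of the threshold or a similar count. Of the 200 members, 156 to 195 were kept under other limits, samples or the median, 189, 193 and 192 with small, medium or large oocytes alone, and 126 under every one. A ranking per length was not run. Depth limits single values in CC pools, where 55.7% of the members' values were 0. In MGCs 79.0% were 0, as the choice of members favours.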

Other observations

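Of the members, 7 pairs stood in adjacent rows of the deposited counts, beside 1 pair among ranks 201 to 400 of the same ordering, and the meaning of the row order was not settled. The list was similar from stage to stage, since 179 of the 200 members were also in the list made from oocytes of each stage alone, and 8 of the 10 highest were among the 10 highest in each.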
